A study of Mus musculus with 6 samples.

Results

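Transferrin and 9 further genes of cellular iron handling were read in TuBo cells with and without p140Cap. The 10 genes were taken by symbol from the 21960 genes of the deposited counts: Trf, Tfrc, Fth1, Ftl1, Slc40a1, Slc11a2, Ireb2, Aco1, Ncoa4 and Steap3. All 10 passed the filter on low counts, which left 11800 genes for testing. The set was chosen by the measured level of Trf, the transcript with most reads in the p140Cap libraries, so the Trf level and its difference between groups are described without a test, while the other members were taken for their roles.

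In the BALB/c-MMTV-NeuT mouse the MMTV promoter drives the rat Neu oncogene in the mammary gland, and TuBo is a cell line from a cancer of such an animal, used as a model of HER2+ BC. RNA-Seq was available for 3 mock and 3 p140Cap libraries. Both groups share the NeuT background, which the labels give as Balb-NeuT, with genotype wt for the mock group. p140Cap cells carry a p140Cap cDNA in the pBabe-puro retrovirus, were selected with puromycin, and were pooled from single-cell clones found to express the protein, by the labels and the study's methods, so selection and cloning cannot be told apart from p140Cap itself. Which vector the mock cells carry is not stated in those sources. TuBo cells were grown with fetal bovine serum, which itself contains transferrin. One label describes the samples as mice, and they were read here as TuBo cells.

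Transferrin is a secreted glycoprotein, made mainly by the liver and also by mammary epithelium, that carries ferric iron in body fluids and milk. Cells bind it through the transferrin receptor (Tfrc), release the iron in endosomes, reduce it with Steap3 and move it to the cytosol through Dmt1 (Slc11a2). Cytosolic iron is stored in ferritin, built of Fth1 and Ftl1 chains, recovered from it through the receptor Ncoa4, or exported by ferroportin (Slc40a1). The iron regulatory proteins Irp1 (Aco1) and Irp2 (Ireb2) bind iron-responsive elements (IREs) in mRNAs when iron is low, which blocks translation from a 5′ UTR and stabilizes the mRNA from a 3′ UTR.

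IREs are shown because their place, in the 5′ UTR or the 3′ UTR, goes with the described mode of control, by translation or by mRNA stability. Neither was measured here. UTRs of GENCODE transcripts on GRCm39 were searched on the sense strand for CNNNNNCAGTGN, with 5 paired bases between the bulged C and the loop and at least 4 of 6 pairs below the bulge, G:U pairs allowed. Of 21594 protein-coding genes, 35 (0.162%) held a match, among them 4 of the 10 members. These 4 are mRNAs with a described IRE, whose letters were the ones searched, so their matches are no finding of these data. Sequences run 5′ to 3′ in DNA letters, and capitals mark the bulged C and the 6-base loop. The Fth1 match lies in the 5′ UTR at chr19:9960095-9960124 (plus strand), that of Ftl1 in the 5′ UTR at chr7:45109203-45109232 (minus strand) and that of Slc40a1 in the 5′ UTR at chr1:45964625-45964654 (minus strand). The 4 Tfrc matches lie in the 3′ UTR on the plus strand at chr16:32450036-32450065, chr16:32450415-32450444, chr16:32450480-32450509 and chr16:32450527-32450556, and are listed in that order.
Fth1: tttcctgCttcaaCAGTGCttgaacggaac
Ftl1: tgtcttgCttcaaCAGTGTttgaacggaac
Slc40a1: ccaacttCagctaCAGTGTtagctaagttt
Tfrc at 32450036: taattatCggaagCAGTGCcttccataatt
Tfrc at 32450415: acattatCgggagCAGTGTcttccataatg
Tfrc at 32450480: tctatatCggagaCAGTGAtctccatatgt
Tfrc at 32450527: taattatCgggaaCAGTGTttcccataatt
A match is a description of letters and not of binding. No match was found for Slc11a2, which is described as having an IRE, and this says only that these letters were not in the searched UTRs.

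Libraries held 33058719 to 75506562 reads on genes in mock and 13770385 to 15364850 in p140Cap cells, so every mock library was deeper. Srcin1, which encodes p140Cap, had 12.8 to 16.6 normalized reads (CPM, counts scaled to the TMM-adjusted library size) in mock and 2244 to 2520 CPM in p140Cap libraries, in the direction of the labels. Of 10 luminal epithelial markers, 9 passed the filter, and Krt19 did not, with 1 to 4 reads in mock and 1 to 5 in p140Cap libraries. The markers summed to 6149 to 6628 CPM in mock and 6885 to 7099 CPM in p140Cap libraries, with 6 higher and 1 lower by the test, Krt7, which fell from 803 to 447 CPM (log2 fold change -0.84, edgeR adjusted p = 9.45e-10). Between p140Cap and mock, 71.1% of all genes tested had an adjusted p under 0.05 by the quasi-likelihood test in edgeR, adjusted after Benjamini and Hochberg, with 35.2% higher and 35.9% lower in p140Cap cells, and in 73.4% the libraries of the groups did not overlap. The sources do not say whether libraries came from separate cultures, so p-values measure only the spread between these libraries. In bulk RNA, fewer cells of a type and less RNA per cell cannot be told apart.

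Trf (ENSMUSG00000032554, chromosome 9, 103081200 to 103107814, minus strand of GRCm39) was covered by 426897, 220665 and 198902 reads in mock cells, against 165578, 168666 and 143087 in p140Cap cells. These were 5578, 5548 and 5973 CPM in mock and 10913, 11489 and 10510 CPM in p140Cap cells. Every p140Cap library stood above every mock library, as was so for 36.3% of all genes tested. Trf was chosen by its level in these libraries, so this is a description only. Mean Trf was 5700 ± 237 CPM (SD, n = 3) in mock and 10970 ± 492 CPM (SD, n = 3) in p140Cap cells, a 1.92-fold difference or 0.94 on the log2 scale. Over all genes tested, the 95th percentile was 0.99 on that scale.

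Trf alone took 0.565%, 0.564% and 0.602% of all reads in the mock libraries and 1.08%, 1.13% and 1.04% in the p140Cap libraries. The exact binomial 95% intervals of these shares, which cover counting error only, ran from 0.562% to 0.604% over the mock libraries and from 1.03% to 1.14% over the p140Cap libraries. Trf ranked second by reads in each mock library, behind the elongation factor gene Eef1a1, and first in each p140Cap library. The transcripts next below Trf in p140Cap cells were Eef1a1, with 8440 ± 161 CPM (SD, n = 3), and the milk casein gene Csn3, with 8115 ± 426 CPM (SD, n = 3). In mock cells Eef1a1 had 8961 CPM and Csn3 4164 CPM, log2 fold changes of -0.09 and 0.96, beside 0.94 for Trf. Pkm, which encodes a glycolytic kinase, came next below Trf in mock cells with 5491 ± 433 CPM (SD, n = 3). Per kb of transcript, Trf had rank 5 or 6 among all genes in the mock libraries and rank 4 in each p140Cap library.

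The 10 members together took 0.836% to 0.877% of reads in mock and 1.29% to 1.38% in p140Cap libraries. Without Trf, the other 9 took 0.271% to 0.280% in mock and 0.246% to 0.253% in p140Cap libraries. Trf made up 66.9% to 68.6% of the members' reads in mock and 80.6% to 82.1% in p140Cap libraries.

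Hepatocyte markers, those of the main source of plasma transferrin, summed to 0.353 to 0.541 CPM in mock and 0.857 to 0.885 CPM in p140Cap libraries, with 5 of 7 having reads and Ttr and Serpina1a at 0. Ahsg, the hepatocyte marker with most reads, was the only one tested and rose by 1.27 on the log2 scale (edgeR adjusted p = 0.0051), from 14 to 18 reads in mock and 10 to 13 reads in p140Cap libraries. Alb, which encodes albumin, had 0 to 2 reads in mock and 0 reads in each p140Cap library. Oligodendrocyte markers, of another cell type known for Trf, summed to 102 to 104 CPM in mock and 98.0 to 108 CPM in p140Cap libraries, with 3 of 5 having reads, Cnp the most of them, and Mog and Mag at 0. Leukocyte markers summed to 23.0 to 23.6 CPM in mock and 29.5 to 31.3 CPM in p140Cap libraries, with 4 of 9 having reads, led by Cd163, and Ptprc, Adgre1, Lyz2 and Cd3e among those at 0. Erythroid markers, of cells with high Tfrc, summed to 1.18 to 1.65 CPM in mock and 4.42 to 5.79 CPM in p140Cap libraries, with 2 of 7 having reads, nearly all from Epor, and the globin genes Hba-a1, Hba-a2, Hbb-bs and Hbb-bt among those at 0. Fibroblast markers summed to 9.93 to 10.5 CPM in mock and 11.3 to 14.1 CPM in p140Cap libraries, with 2 of 6 having reads, and endothelial markers to 0.210 to 0.503 CPM and 0.477 to 0.734 CPM, with 4 of 5 having reads. The hepatocyte, leukocyte, erythroid and fibroblast sums were higher in every p140Cap library than in any mock library, as was the luminal sum, and their part in the results was not tested.

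**Figure D1:**
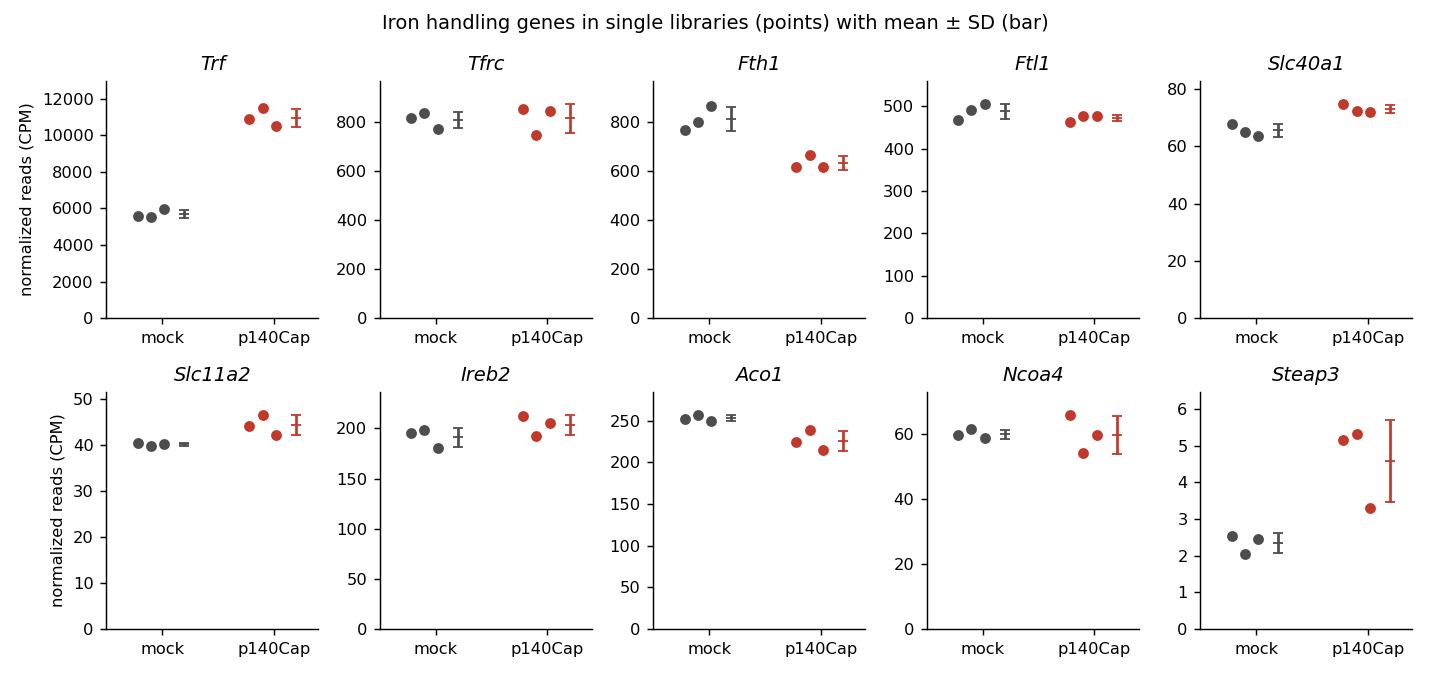
Normalized reads (CPM, linear axis from 0) of the 10 iron handling genes, with 1 point for each mock (grey) and p140Cap (red) library and the mean ± SD beside them. Trf lies at 5548 to 5973 CPM in mock and 10510 to 11489 CPM in p140Cap cells, while Tfrc, Ftl1, Ireb2 and Ncoa4 overlap between groups.

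Of the 9 members other than Trf, 5 passed the test (55.6%, beside 71.1% of all genes), 3 higher and 2 lower in p140Cap cells, and their median log2 fold change was 0.01, beside -0.00 over all genes tested. The 5 that passed were also the 5 whose libraries did not overlap between groups, 3 of them higher in p140Cap cells (beside 36.3% of all genes) and 2 lower (beside 37.2%). The count of 5 became 3 without the first p140Cap library or with no filter on low counts, as the 3 higher fell to 1 in both, and that of 2 lower became 1 without the third p140Cap library.

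Tfrc, the receptor that takes up transferrin, did not pass the test. Tfrc (chromosome 16, 32427556 to 32451612, plus strand) had 819, 838 and 773 CPM in mock and 853, 748 and 846 CPM in p140Cap libraries. Both the lowest and the highest of these values were in p140Cap cells, so the groups overlapped throughout. Its log2 fold change was 0.01 (SE 0.06, 95% interval -0.11 to 0.13, adjusted p = 0.884 in edgeR's quasi-likelihood test).

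Steap3, the endosomal reductase, was the least abundant member per kb, and its log2 fold change was the largest in size among the 9 members other than Trf. Steap3 (chromosome 1, 120118487 to 120200435, minus strand) had 193, 81 and 82 reads in mock and 78, 78 and 45 reads in p140Cap libraries, or 2.52, 2.04 and 2.46 CPM against 5.14, 5.31 and 3.31 CPM. All p140Cap libraries were above all mock libraries, with the third p140Cap library nearest to mock. Steap3 rose by 0.96 on the log2 scale (SE 0.17, 95% interval 0.61 to 1.32, edgeR adjusted p = 8.22e-05), and its coefficient of variation in p140Cap cells was 24.3%.

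Slc11a2, which moves ferrous iron out of endosomes (chromosome 15, 100285776 to 100322953, minus strand), had 40.3, 39.7 and 40.3 CPM in mock and 44.1, 46.5 and 42.2 CPM in p140Cap libraries. The groups did not overlap, but the third p140Cap library stood close to mock. The log2 fold change of Slc11a2 was 0.14 (SE 0.05, 95% interval 0.03 to 0.26, edgeR adjusted p = 0.0262), and the call was lost in 9 of 14 alternatives, with adjusted p between 0.0246 and 0.197. Among these, it was lost without the first or second mock library and without the first or second p140Cap library.

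Of the ferritin chains, Fth1 fell and Ftl1 did not pass the test. Fth1, the chain with ferroxidase activity (chromosome 19, 9957911 to 9962462, plus strand), had 767, 799 and 865 CPM in mock and 615, 664 and 615 CPM in p140Cap libraries. Every p140Cap value lay below every mock value. Fth1 fell by 0.36 on the log2 scale (SE 0.05, 95% interval -0.47 to -0.25, edgeR adjusted p = 1.6e-05), from 810 ± 49.9 to 631 ± 27.9 CPM (SD, n = 3). The pseudogenes Fth-ps2, Fth-ps3 and Fth1-ps were not found by name in the counts, so reads shared with them could not be assessed.

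Ftl1, the chain that aids iron core formation (chromosome 7, 45107367 to 45109308, minus strand), had 468, 492 and 504 CPM in mock and 464, 476 and 476 CPM in p140Cap libraries. The lowest mock library lay inside the p140Cap range. Its log2 fold change was -0.05 (SE 0.05, 95% interval -0.15 to 0.05, edgeR adjusted p = 0.381). The pseudogene Ftl1-ps1, which could share reads with Ftl1, held 2.35% as many reads as Ftl1. Ftl1 also overlaps the annotated Gm56125 on the same strand, and Ftl1-ps2 and Ftl2-ps were not found by name in the counts. The Ftl1 values are therefore uncertain by an amount that was not measured.

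Chromosome 19, which holds Fth1, stood apart from the other members' chromosomes. Of its 424 tested genes, 79.7% lay below 0 and the median was -0.34 on the log2 scale, whereas the medians of the other members' chromosomes ran from -0.01 to 0.06. The Fth1 value of -0.36 was thus close to the median of its chromosome, and the part of the chromosome in the Fth1 difference was not tested.

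Ncoa4, the receptor that delivers ferritin for breakdown (chromosome 14, 31881822 to 31902234, plus strand), had 59.5, 61.3 and 58.7 CPM in mock and 65.7, 54.0 and 59.5 CPM in p140Cap libraries. The p140Cap values lay on both sides of the mock values. Its log2 fold change was -0.00 (SE 0.06, 95% interval -0.13 to 0.13, edgeR adjusted p = 0.98), and the pseudogene Ncoa4-ps held 3.69% as many reads.

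Slc40a1, the iron exporter (chromosome 1, 45947211 to 45965683, minus strand), had 67.9, 65.1 and 63.6 CPM in mock and 74.7, 72.2 and 72.0 CPM in p140Cap libraries. The groups did not overlap. Slc40a1 rose by 0.15 on the log2 scale (SE 0.05, 95% interval 0.05 to 0.26, edgeR adjusted p = 0.0112), or 11.4% on the scale of means. The call was lost without the first p140Cap library (0.13, adjusted p = 0.061) and with no filter on low counts (0.12, adjusted p = 0.0576), in a range of 0.0111 to 0.061 over 14 alternatives.

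Of the regulators, Aco1 fell and Ireb2 did not pass the test. Aco1 (chromosome 4, 40142998 to 40199010, plus strand) had 252, 257 and 249 CPM in mock and 224, 239 and 214 CPM in p140Cap libraries, with no overlap. Aco1 fell by 0.16 on the log2 scale (SE 0.05, 95% interval -0.27 to -0.06, edgeR adjusted p = 0.00735), a call that was lost without the third p140Cap library (-0.13, adjusted p = 0.0527, in a range of 0.000893 to 0.0527).

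Ireb2 (chromosome 9, 54770970 to 54820011, plus strand) had 195, 198 and 181 CPM in mock and 212, 192 and 205 CPM in p140Cap libraries. The second p140Cap library lay within the mock range and the others above it. Its log2 fold change was 0.09 (SE 0.05, 95% interval -0.02 to 0.20, edgeR adjusted p = 0.147), and it passed the test without the second p140Cap library (0.12, adjusted p = 0.0442, in a range of 0.0442 to 0.482). Its log2 fold change was 0.04 without the third mock library (adjusted p = 0.482) and 0.05 without the first p140Cap library (adjusted p = 0.471).

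**Figure D2:**
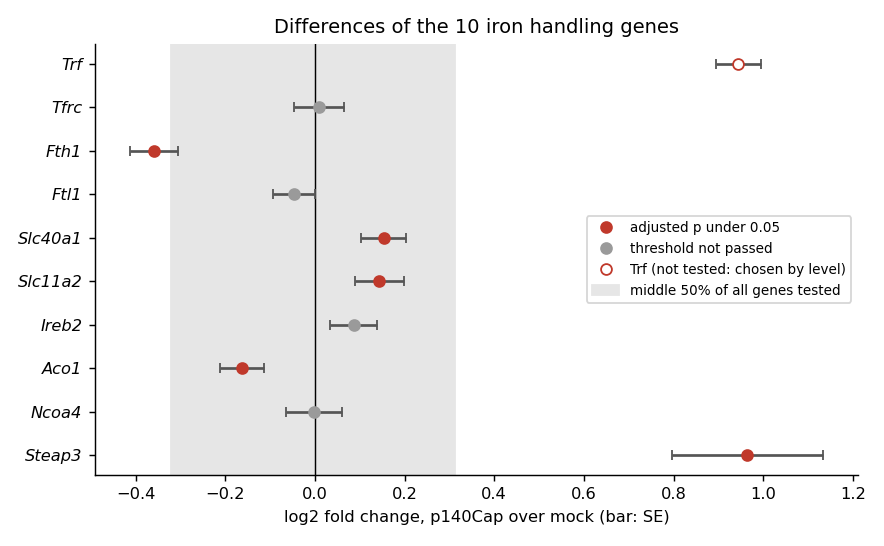
Log2 fold change of each iron handling gene, p140Cap over mock, with bars of 1 SE to each side and a grey band for the middle 50% of all genes tested. Fth1 at -0.36 and Steap3 at 0.96 lie furthest from 0 among the members other than Trf, and Tfrc lies at 0.01 with an SE of 0.06.

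Levels of different members were compared per kb of the canonical transcript. In mock cells the order was Trf with 2217 ± 92.2 CPM per kb (SD, n = 3), Fth1 with 872 ± 53.7, Ftl1 with 503 ± 19.2, Tfrc with 165 ± 6.76, Aco1 with 55.1 ± 0.803, Ireb2 with 32.6 ± 1.60, Slc40a1 with 18.9 ± 0.627, Ncoa4 with 13.3 ± 0.297, Slc11a2 with 13.3 ± 0.125 and Steap3 with 0.413 ± 0.0468. In p140Cap cells it was Trf with 4267 ± 191 CPM per kb, Fth1 with 680 ± 30.0, Ftl1 with 487 ± 7.53, Tfrc with 167 ± 11.9, Aco1 with 49.2 ± 2.66, Ireb2 with 34.6 ± 1.71, Slc40a1 with 21.1 ± 0.432, Slc11a2 with 14.6 ± 0.711, Ncoa4 with 13.3 ± 1.30 and Steap3 with 0.810 ± 0.197. Ncoa4 and Slc11a2 overlapped in both groups, and no other neighbours in the order did.

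Ratios of reads within a library do not depend on the library total. The ratio of Fth1 to Ftl1 reads was 1.64, 1.62 and 1.71 in mock and 1.33, 1.39 and 1.29 in p140Cap libraries, so every p140Cap library had fewer Fth1 reads for each Ftl1 read. The ratio of Tfrc to Fth1 reads was 1.07, 1.05 and 0.894 in mock and 1.39, 1.13 and 1.37 in p140Cap libraries, and that of Slc40a1 to Fth1 was 0.0885, 0.0815 and 0.0735 in mock and 0.121, 0.109 and 0.117 in p140Cap libraries. Both were higher in every p140Cap library, and both have Fth1 below the line.

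The ratio of Ireb2 to Aco1 reads was 0.775, 0.772 and 0.724 in mock and 0.947, 0.806 and 0.958 in p140Cap libraries, again without overlap. The ratio of Slc11a2 to Tfrc reads was 0.0493, 0.0473 and 0.0521 in mock and 0.0517, 0.0622 and 0.0499 in p140Cap libraries, and these overlapped. For the first 4 ratios the two-sided exact permutation test gave p = 0.1, the smallest that 3 against 3 libraries allow, and 0.125 after Benjamini-Hochberg adjustment over 5 ratios. For Slc11a2 to Tfrc the exact permutation p was 0.3 before and after adjustment, and its log2 difference of 0.13 became 0.04 without the second p140Cap library.

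**Figure D3:**
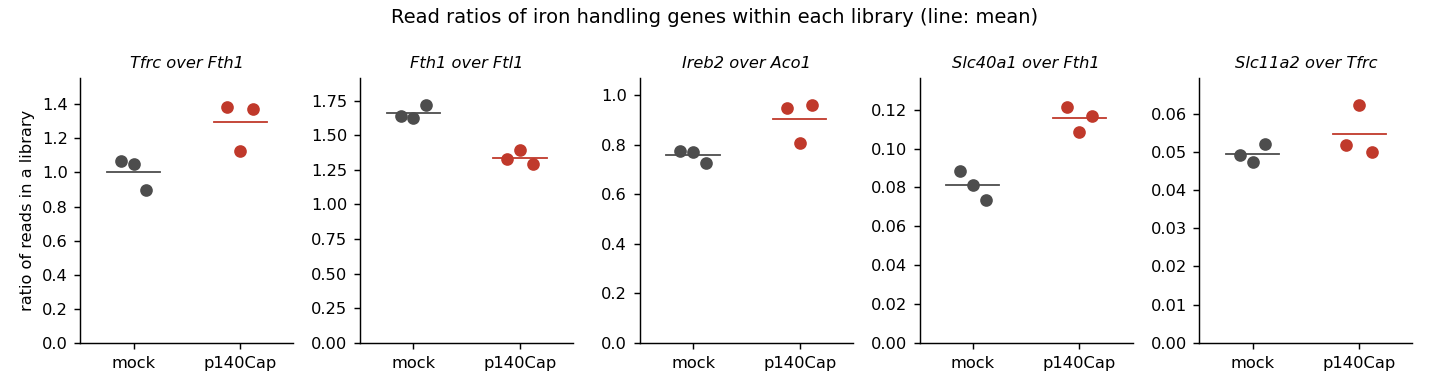
Ratios of reads of 2 iron handling genes within each library (linear axis from 0), with 1 point for each mock and p140Cap library. The ratio of Fth1 to Ftl1 lies at 1.62 to 1.71 in mock and 1.29 to 1.39 in p140Cap cells, and the ratio of Slc11a2 to Tfrc overlaps between groups.

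Genes whose profile over the 6 libraries was most like that of Trf were Sox13, Acvr1b, P4hb and Capn5. Likeness was the root mean square difference of log2 CPM centred on the mock mean, among 10722 genes with a median of 0.68, and it was 0.0263 for Sox13, 0.0272 for Acvr1b, 0.0302 for P4hb and 0.0311 for Capn5. P4hb, a protein disulfide isomerase of the secretory pathway, had 829.9 CPM in mock and 1579 CPM in p140Cap cells. Ltf, which encodes the related iron-binding protein lactoferrin, had 58.1 ± 1.13 CPM in mock and 81.5 ± 4.84 CPM in p140Cap cells (SD, n = 3), a rise of 0.49 on the log2 scale (SE 0.05, edgeR adjusted p = 3.83e-07).

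Beyond the members, 6 lists of other iron genes held 81 tested genes, of which 63 passed the test (77.8%, beside 71.1% of all genes), 34 higher and 29 lower, with a median log2 fold change of 0.06. Of 11 tested genes of iron uptake and the endosome, 9 rose and 2 fell (100% called, beside 71.1% of all genes, median 0.49). Lrp1, a scavenger receptor that takes up heme-hemopexin, rose from 7.44 to 17.6 CPM (log2 fold change 1.22, SE 0.13, edgeR adjusted p = 3.89e-07). Slc39a8, a metal importer, fell from 102 to 55.8 CPM (log2 fold change -0.87, SE 0.05, edgeR adjusted p = 2.47e-10). The related Slc39a14 rose from 36.9 to 58.2 CPM (log2 fold change 0.66, SE 0.05, edgeR adjusted p = 6.75e-09).

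Among 6 tested genes of iron storage and ferritin turnover, 1 rose, 2 fell and 3 did not pass (50% called, beside 71.1% of all genes, median -0.02). Pcbp1, which delivers iron to ferritin, fell from 307 to 211 CPM (log2 fold change -0.54, SE 0.06, edgeR adjusted p = 2.73e-07), and Herc2, a ubiquitin ligase for Ncoa4, fell from 165 to 112 CPM (log2 fold change -0.56, SE 0.06, edgeR adjusted p = 1.26e-07). The 5 tested genes of iron export and hepcidin passed, 4 higher and 1 lower (median 0.59), in a comparison where 71.1% of all genes passed, 35.2% higher and 35.9% lower. Cp, a ferroxidase that oxidizes exported iron to the ferric form, rose from 285 to 438 CPM (log2 fold change 0.62, SE 0.05, edgeR adjusted p = 1.09e-08). Rnf217, a ubiquitin ligase for ferroportin, rose from 39.7 to 59.8 CPM (log2 fold change 0.59, SE 0.05, edgeR adjusted p = 4.78e-08). This count of 5 was 3 without the second p140Cap library.

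Of 11 tested genes of iron regulatory protein control, 5 rose, 4 fell and 2 did not pass (81.8% called, beside 71.1% of all genes, median 0.00). Nubp1, a cytosolic Fe-S assembly factor, fell from 57.8 to 33.0 CPM (log2 fold change -0.81, SE 0.06, edgeR adjusted p = 1.89e-09), and Zc3h12a, an RNase that cleaves Tfrc mRNA, rose from 5.80 to 9.11 CPM (log2 fold change 0.64, SE 0.11, edgeR adjusted p = 6.96e-05). Of 9 tested mRNAs with a described IRE, 2 rose, 3 fell and 4 did not pass (55.6% called, median -0.05), 5 of these 9 being members. The 5 called became 3 without the first p140Cap library or with no filter. The non-members that fell were Cdc14a, from 94.3 to 81.7 CPM (log2 fold change -0.21, edgeR adjusted p = 0.00165), and Cdc42bpa, from 69.8 to 60.5 CPM (log2 fold change -0.21, edgeR adjusted p = 0.00236).

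Of 30 tested genes of mitochondrial iron and Fe-S assembly, 8 rose, 15 fell and 7 did not pass (median -0.16), and the 76.7% called was near the 71.1% of all genes. Ciapin1, a cytosolic Fe-S assembly factor, fell from 75.1 to 33.0 CPM (log2 fold change -1.18, SE 0.06, edgeR adjusted p = 3.22e-11). Of 18 tested heme genes, 7 rose, 5 fell and 6 did not pass (66.7% called, median 0.08), with the heme exporter Flvcr1 (listed as Mfsd7b) at -1.04, from 26.1 to 12.6 CPM, and the biliverdin reductase Blvrb at 0.93, from 17.4 to 33.1 CPM (SE 0.08, edgeR adjusted p = 1.10e-08). The related Flvcr2 went the other way, from 133 to 244 CPM (log2 fold change 0.88, SE 0.04, edgeR adjusted p = 5.24e-11).

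**Figure D4:**
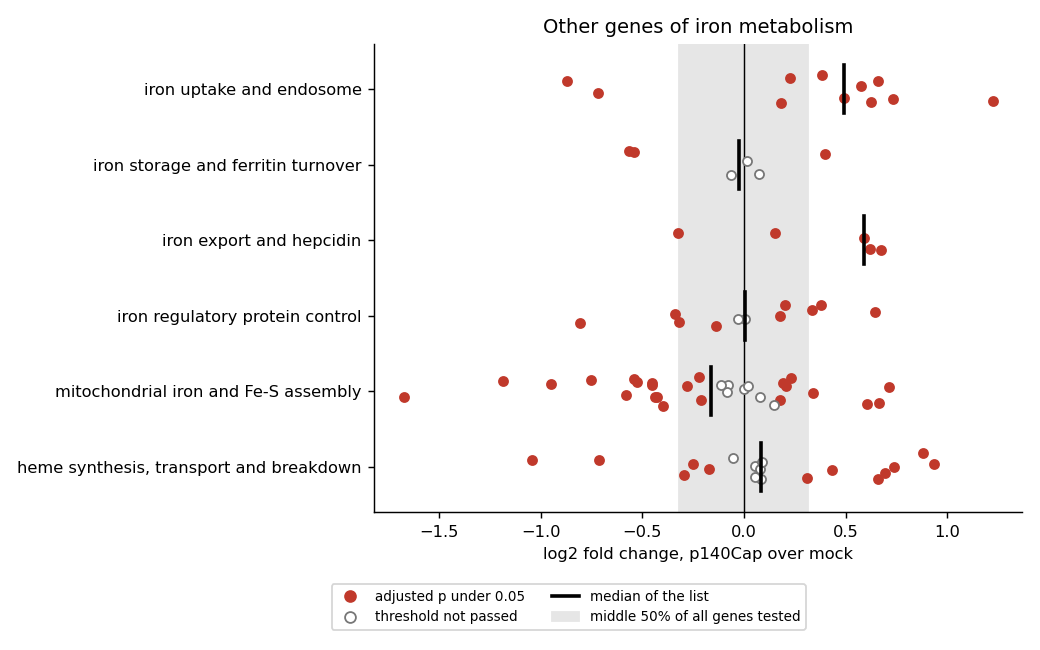
Log2 fold change, p140Cap over mock, of each tested gene in 6 lists of other iron genes, filled where the adjusted p was under 0.05, with a black bar at each list's median and a grey band for the middle 50% of all genes tested. The uptake and export lists have medians of 0.49 and 0.59, and the list of mitochondrial iron and Fe-S assembly has a median of -0.16.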

How the data were processed

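RNA-Seq of 3 mock and 3 p140Cap TuBo libraries was analysed. By the paper's methods, stranded libraries were sequenced on an Illumina NextSeq and processed with docker4seq, and the labels give poly(A) selection. The authors deposited counts, whole numbers per gene without normalization, with replicates kept apart. The submitters' processing notes name STAR 2.5, RSEM 0.1.1 and mm10, whereas the paper names GRCm39. RSEM estimates counts and divides shared reads, so the values may be rounded estimates, which the sources do not settle, and "reads" in the text means these values. Neither the annotation release nor the use of strand in counting is stated in them. Antisense and overlapping genes may therefore share reads with Trf, Fth1, Ftl1, Slc40a1, Slc11a2 and Ncoa4.

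Counts were analysed in R 4.3.3 with TMM factors, filterByExpr by group and edgeR 4.0.16 (quasi-likelihood test, no covariates). P-values were adjusted by the Benjamini-Hochberg method, and genes under 0.05 were called. SE is the absolute log2 fold change over the square root of F. Positions, lengths and UTRs came from GENCODE vM39 on GRCm39 by Ensembl identifier, which 98.6% of genes matched. The scripts were tested on simulated data in which 200 of 11800 genes changed, by 0.5, 1 or 2 on the log2 scale. Of the changes of 0.5, 80.6% were recovered, and 5.70% of calls were false. Differences below 0.5, and a change as broad as the 71.1% called here, were not simulated. Total counts per library are given with the results, and exact binomial intervals cover counting error only. Libraries of the same group differed by more than sampling noise (mean chi-square 1.75 to 10.7).

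The members and lists were chosen with earlier results of these data known. Named genes were the members, in each list at most 2 called genes, those changed most (mean log2 CPM of at least 1, no overlap between groups), the 3 most abundant genes of each group, the 4 most like Trf, and Srcin1. Some genes that this rule or the marker lists hold are not reported here. Ltf, Flvcr2, Slc39a14, Ftl1-ps1 and Ncoa4-ps, and marker genes, were added to these with their values known. Alternatives were DESeq2 1.42.0, RLE factors, no filter, a minimum of 10 reads per library, limma-voom (limma 3.58.1), omission of each library in turn, a replicate block, and thinning to the smallest total. Library totals in place of TMM were added after seeing the data.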

Additional observations from a re-analysis of the deposited data

How the results depend on the processing

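Genes called numbered 8388, and 7851 to 8716 over 14 alternatives. Fth1 (-0.40 to -0.32) and Steap3 (0.85 to 1.14) kept their call in all 14, and the Trf log2 difference stayed between 0.91 and 0.97. The 5 members called became 3 with no filter on low counts and 3 to 5 with a library left out. Those higher went from 3 to 1 with no filter and 1 to 3 with a library left out, and those lower from 2 to between 1 and 2. The IRE list's 5 became 3 with no filter and 3 to 5 with a library left out, and the export list's 5 became 3 to 5. Tfrc, near 0, changed sign with no filter (-0.020), with library totals (-0.027) and with a library left out (-0.027 to 0.066), and the median of all genes tested was -0.06 with no filter and -0.04 with library totals, beside -0.00 as reported. Ncoa4 changed sign on thinning (0.0010) and with a library left out (-0.079 to 0.064). The lowest counts came without p140Cap 1 (members, those higher and IRE list), p140Cap 3 (those lower) and p140Cap 2 (export list), and other omissions, mock libraries among them, also cost single calls. The cause was not tested. The 5 read ratios kept their direction in the 8 alternatives run for them, with Slc11a2 to Tfrc between 0.04 and 0.20 (0.13 as reported).

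With the replicate number as a block, 8034 genes and 4 members were called, and Slc11a2 lost its call (0.14, adjusted p = 0.0568). Same-numbered libraries did not deviate together (correlations of -0.03, -0.11 and -0.06), so the numbers were not taken as pairs. Depth limits Steap3, with 45 reads in its lowest library.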
